A study of Rattus norvegicus with 9 samples.

Results

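The genes described here encode the proteins of the cell's ribosomes, those of the cytosol and those of the mitochondrion. They were chosen by symbol alone: names of the form Rps or Rpl with a number, the 3 acidic stalk proteins Rplp0, Rplp1 and Rplp2, and names of the form Mrps or Mrpl with a number, with a mean of at least 1 FPKM over the 9 libraries. Of 17298 genes in the deposited table, 147 had such a symbol and 145 met the minimum: 75 cytosolic (30 of the small subunit, 45 of the large) and 70 mitochondrial (25 of the small subunit, 45 of the large). The rule used no measured difference between groups, but the members were chosen with earlier results of these data known. The genes left out were Mrpl30, with a mean of 0.413 FPKM, and Mrps28, with 0.876 FPKM, and the member nearest to the minimum was Mrpl1, with 3.77 FPKM.

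Every library came from wild-type rat synovial fibroblasts, which line the joint and help to make its lubricating fluid, and 3 libraries were made per group. The co-culture cells received IL-1β, a cytokine of joint inflammation, and shared a transwell with dermal fibroblasts, which sat in the upper chamber while the synovial cells sat below. The IL-1β cells received the cytokine in normal culture, and the control cells were in normal culture without it. All groups are cells isolated by collagenase digestion, and polyadenylated RNA was captured for sequencing. Neither dose, time nor animal age was labelled, nor was it stated that replicate libraries were separate cultures or animals. The p-values therefore describe only how these libraries scatter, and that scatter may be technical.

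Each cytosolic ribosome is built from a small subunit, which reads the messenger RNA, and a large subunit, which joins amino acids, and its proteins are encoded by some of the most actively transcribed genes of a growing cell. The mitochondrial ribosome descends from a bacterial ribosome and makes only the few proteins of the respiratory chain that mitochondrial DNA encodes, but its own proteins are encoded in the nucleus and imported. Many mRNAs of cytosolic ribosomal proteins begin with a C followed by a run of pyrimidines, the terminal oligopyrimidine (TOP) tract, through which mTORC1 signalling sets their translation.

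The deposited unit was FPKM, in which read fragments are divided by the length of the transcript and the library's size, so values are relative within a library and comparable between genes per unit length. Sequencing depth is unknown. Library sums ran from 679774 to 741810 FPKM. Il6, a gene that IL-1β induces, stood at 104 to 109 FPKM in co-culture, 1025 to 1109 FPKM in IL-1β and 36.7 to 41.9 FPKM in control libraries. This checks the IL-1β and control labels. The co-culture values lay between, so Il6 does not by itself check that those cells received the cytokine. All 12 synovial fibroblast markers examined were present. Of 10 leukocyte markers, 8 were in the table, none at 0 in all 9 libraries, and 3 reached 1 FPKM. The sums over the 8 were 26.2 to 28.2 FPKM in co-culture, 35.6 to 39.7 FPKM in IL-1β and 26.3 to 28.4 FPKM in control libraries. The 3 that reached 1 FPKM did not all go the same way with IL-1β over control. Of 9 endothelial and mural markers, 8 were in the table and 3 reached 1 FPKM, the mural genes Des, Cspg4 and Myh11. The sums over the 8 were 21.6 to 22.3 FPKM in co-culture, 8.06 to 9.19 FPKM in IL-1β and 24.0 to 26.2 FPKM in control libraries. The part of either list in the results below was not tested. In bulk RNA, fewer cells of a type and less RNA per cell cannot be told apart.

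The cytosolic genes were expressed far above the mitochondrial ones. The median cytosolic gene had 1759 FPKM and the median mitochondrial gene 36.7 FPKM, a ratio of 47.9, whereas the median of all 11372 genes tested was 14.2 FPKM. Of the 100 genes with the highest mean level, 54 encoded cytosolic ribosomal proteins and 0 encoded mitochondrial ones. Rps2, a protein of the small subunit at the entrance of the mRNA channel, was the highest member at 4402 FPKM, and Rpl13a was the highest of the large subunit at 3521 FPKM. Rps29, at 4077 FPKM, and Rps24, at 3268 FPKM, came next in the small subunit, and Rpl41, the shortest of the proteins, at 3170 FPKM, and Rpl21, at 2969 FPKM, in the large subunit. In all, 65 of the 75 cytosolic genes exceeded 1000 FPKM, and 64 of the 70 mitochondrial genes stayed under 100 FPKM.

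The proteins of a ribosome are needed in about equal numbers, yet their mRNAs were not equally abundant. Levels spanned 26.3-fold within the cytosolic genes, the lowest being Rps19 at 167 FPKM, a protein needed to mature the small subunit and mutated in human Diamond-Blackfan anaemia. The rows of Rps19, Rps9 and Rpl37a carry gene identifiers other than the current RefSeq ones, and ribosomal protein genes have many near-identical pseudogene copies, so such levels are uncertain where reads could be split between copies. Rps9, at 567 FPKM, was next to it in the small subunit, and Rpl15, at 350 FPKM, and Rpl36a, at 397 FPKM, were lowest in the large subunit. Levels spanned 78.5-fold within the mitochondrial genes, with Mrpl33, a homologue of a bacterial large-subunit protein, at 296 FPKM and Mrpl1 at 3.77 FPKM. Mrpl17, at 210 FPKM, and Mrpl23, at 135 FPKM, followed Mrpl33, and Mrpl40, at 8.23 FPKM, preceded Mrpl1. In the mitochondrial small subunit Mrps21, at 146 FPKM, Mrps17, at 80.5 FPKM, and Mrps16, at 80.5 FPKM, were highest and Mrps31, at 14.5 FPKM, and Mrps5, at 17.7 FPKM, lowest. Mrpl1 was listed at 0 in 2 libraries: its values were 0, 7.44 and 6.63 FPKM in co-culture, 9.08, 2.02 and 2.83 FPKM in IL-1β and 2.08, 3.83 and 0 FPKM in control libraries. No fold change is given for it.

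**Figure D1:**
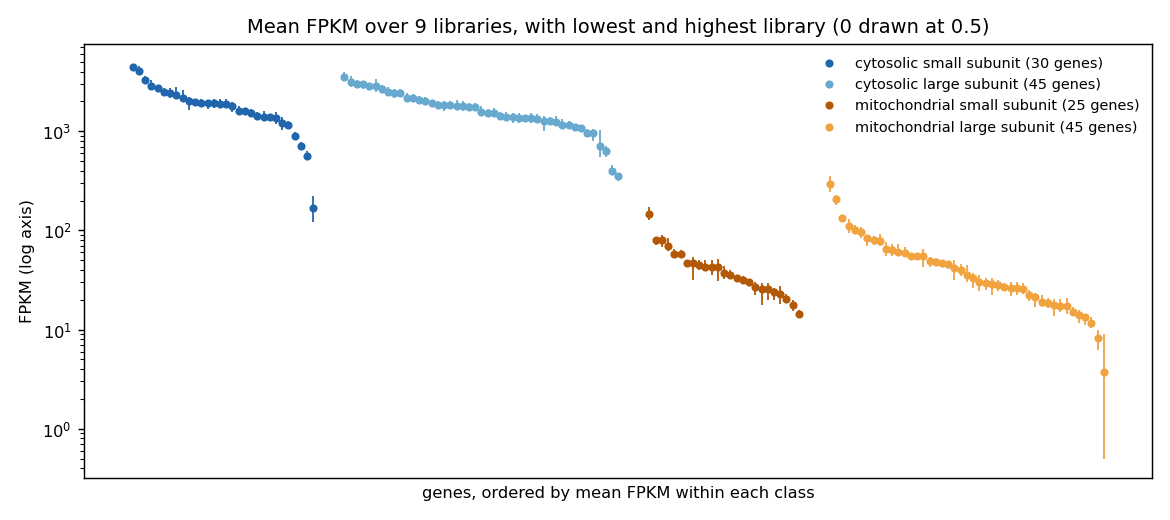
Mean FPKM (points, log axis) of each ribosomal protein gene over the 9 libraries, ordered within each class, with lines from the lowest to the highest library. The cytosolic genes lie around 1759 FPKM and the mitochondrial genes around 36.7 FPKM, and the longest line is that of Mrpl1, which was listed at 0 in 2 libraries.

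The start sites of these genes differed in sequence between the classes. Promoters from RefSeq (assembly GRCr8, 250 bases before to 50 after the annotated start) were found by gene identifier for 113 members, 56 cytosolic and 57 mitochondrial. A C followed by at least 4 C or T letters, with the C within 5 bases of the annotated start, was present in 36 of the 56 cytosolic genes, 64.3% (95% Wilson interval 51.2 to 75.5), in 13 of the 57 mitochondrial genes, 22.8% (13.8 to 35.2), and in 17% of all 27457 promoters. The windows below show 10 bases before and 20 from the start on, with the tract in capitals. They were chosen as genes whose mRNA values are given further on. Cytosolic genes with a tract were these.
Rpl28: cccctagtgtCTTTCTTTCCgtctccggcc
Rpl27a: cttggtgggCTCCTCCCTCTTTCTTTTCTg
Rplp0: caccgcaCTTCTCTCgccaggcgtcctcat
Rpl10a: cttctgCCTTCTTTTCCggttcccgcagcc
Cytosolic genes without one at the annotated start were Rps2 and Rpl3.
Rps2: tctttttcttcgggaaaacacgtgagtctg
Rpl3: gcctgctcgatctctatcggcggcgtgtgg
Of the mitochondrial genes below, only Mrpl48 had a tract at this distance.
Mrpl48: aagacCTTTCCggtcgcgttttcagaagcc
Mrpl14: accactggcgcgcaggcgcagcgtgcaggg
Mrps26: ggagattcccgtgatgctcctcgaccactt
Mrps10: ggctgtgatcccggaagcgatcgtgggagg
Mrpl12: agacaaaggcatgccgcggagggctgcagg
In GRCr8 these windows lie at chr1:78083513-78083542 on the minus strand for Rpl28, chr10:14251838-14251867 on the plus strand for Rps2, chr9:22811214-22811243 on the minus strand for Mrpl14 and chr10:106256736-106256765 on the plus strand for Mrpl12. An annotated start can miss the start used in these cells by some bases. With the C allowed up to 20 bases away the shares were 87.5% of cytosolic, 54.4% of mitochondrial and 48.0% of all promoters.

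Letters associated with 3 transcription factors were also counted on both strands of the 300-base promoters, each counted separately even where matches overlapped, which describes sequence and not binding. CCGGAAG, the core bound by GABP and other ETS factors, was found in 33.9% of the cytosolic (19 of 56) and 29.8% of the mitochondrial promoters (17 of 57), against 9.22% of all promoters. AAGATGGCG, bound by YY1, was found in 3.57% of the cytosolic and 14.0% of the mitochondrial promoters, against 1.93% of all. GCGCATGC, the core of the NRF1 motif, was found in 3.57% of the cytosolic, 7.02% of the mitochondrial and 2.66% of all promoters. One pair of members lies head to head: the annotated starts of Mrps11 and Mrpl46, which encode one protein of each mitochondrial subunit, are 234 bases apart on chromosome 1.

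IL-1β was set against control to see how the cytokine alone moved ribosomal protein mRNA. As deposited, a smaller share of cytosolic genes than of all genes passed the test in each direction, and the mitochondrial share that was lower was near that of all genes. Across all genes, 20.5% were called higher and 31.2% lower (limma on log2(FPKM + 1), Benjamini-Hochberg adjusted p under 0.05 over all genes tested). Among the mitochondrial genes 5 of 70 were higher (7.14%) and 26 lower (37.1%), and their fold changes had a median of -0.10 on the log2 scale. Among the cytosolic genes 1 of 75 was higher (1.33%) and 10 lower (13.3%), at a median of -0.0094. The median of all genes was -0.04, so the cytosolic median lay above it and the mitochondrial median below it.

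The cytosolic count depended on how the libraries were scaled. Median-of-ratios scaling, which sets the typical gene equal between libraries, called 25.4% of all genes higher and 25.3% lower. It left 19 mitochondrial genes lower (27.1%), all among the 26, and 10 higher (14.3%), but 2 cytosolic genes lower and 7 higher, with medians of -0.05 for the mitochondrial and 0.04 for the cytosolic class. Quantile normalization went the other way for the cytosolic genes, with 46 lower and 0 higher and a median of -0.13, while 24 mitochondrial genes were lower at a median of -0.10, where 21.7% of all genes were higher and 30.3% lower. Under it the cytosolic median thus lay further below 0 than the mitochondrial one. The mitochondrial median was below 0 under each of these scalings, and the cytosolic median changed sign between them. Even without rescaling, the 10 cytosolic genes lower as deposited became 6 without IL-1β replicate 1 and 4 without control replicate 3.

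Several proteins of the mitochondrial large subunit were among the members lower with IL-1β. Mrpl14, a homologue of a bacterial protein at the interface between the subunits, had 31.6, 32.2 and 31.8 FPKM in IL-1β libraries, against 48.1, 43.0 and 46.9 FPKM in control libraries. Its log2 fold change was -0.51 (SE 0.07, limma adjusted p = 8.33e-05), and the groups did not overlap. Mrpl48, a protein found in mitochondrial but not bacterial ribosomes, had 26.7, 22.5 and 22.9 FPKM in IL-1β libraries, against 32.8, 31.9 and 31.4 FPKM in control libraries (log2 fold change -0.40, SE 0.06, limma adjusted p = 0.000122). Mrpl44, which has the fold of an RNA-cutting enzyme and is mutated in a human infantile cardiomyopathy, averaged 23.0 ± 1.1 FPKM in IL-1β libraries and 28.6 ± 1.3 FPKM in control libraries (SD, n = 3 each), and no IL-1β library reached a control one (log2 fold change -0.31, limma adjusted p = 0.000238). Mrpl17, the second most abundant member of its class, had 181, 201 and 188 FPKM in IL-1β libraries, against 218, 224 and 226 FPKM in control libraries (log2 fold change -0.23, limma adjusted p = 0.000577).

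The small mitochondrial subunit held members of similar size of change. Mrps24, whose bacterial homologue lines the path by which mRNA enters, had 34.0, 35.2 and 30.8 FPKM in IL-1β libraries, against 45.3, 48.7 and 46.7 FPKM in control libraries (log2 fold change -0.48, SE 0.06, limma adjusted p = 6.18e-05). Mrps26, found in mitochondrial ribosomes only, had 39.9, 37.3 and 31.4 FPKM in IL-1β libraries, against 47.2, 54.6 and 53.2 FPKM in control libraries (log2 fold change -0.51, SE 0.08, limma adjusted p = 0.000535). Mrps6, a homologue of a bacterial small-subunit protein, had 23.0, 20.1 and 17.8 FPKM in IL-1β libraries, against 27.5, 27.8 and 29.3 FPKM in control libraries (log2 fold change -0.46, SE 0.07, limma adjusted p = 0.000228). In each of these genes every IL-1β library was below every control library. By subunit, 9 of 25 small-subunit (36.0%) and 17 of 45 large-subunit mitochondrial genes (37.8%) were lower, near the 31.2% of all genes. After median-of-ratios scaling 6 (24.0%) and 13 (28.9%) were, against 25.3% of all genes.

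The 5 mitochondrial genes called higher with IL-1β were among 20 of the 70 with a positive fold change (27 after median-of-ratios scaling), and 39 genes of the class passed in neither direction. Mrps10, a homologue of a bacterial small-subunit protein, had 25.8, 23.0 and 27.7 FPKM in IL-1β libraries, against 19.6, 18.2 and 21.6 FPKM in control libraries (log2 fold change 0.35, SE 0.07, limma adjusted p = 0.00202). Mrpl41, present in mitochondrial but not bacterial ribosomes, had 76.0, 65.8 and 71.3 FPKM in IL-1β libraries, against 58.4, 55.3 and 58.9 FPKM in control libraries (log2 fold change 0.30, SE 0.08, limma adjusted p = 0.0116). Mrpl53, likewise absent from bacteria, had 34.2, 35.2 and 35.1 FPKM in IL-1β libraries, against 30.7, 29.9 and 31.9 FPKM in control libraries (log2 fold change 0.17, SE 0.05, limma adjusted p = 0.0087). For these 3 genes the groups did not overlap and the call held without any single library.
The other two were less firm. Mrpl33 had 293, 340 and 351 FPKM in IL-1β libraries, against 246, 264 and 299 FPKM in control libraries, which overlap (log2 fold change 0.28, limma adjusted p = 0.0388), and the call was lost without co-culture replicate 1, IL-1β replicates 2 or 3, or control replicates 1 or 2, and under quantile normalization (adjusted p = 0.0627). Mrpl47 averaged 12.1 ± 0.65 FPKM in IL-1β libraries and 10.6 ± 0.31 FPKM in control libraries (SD, n = 3 each; log2 fold change 0.17, limma adjusted p = 0.0398), a call lost without co-culture replicate 1, IL-1β replicates 1 or 3, or any control library, without a filter (adjusted p = 0.0656) and without trend and robust settings (adjusted p = 0.0509). The count of higher mitochondrial genes was 3 without IL-1β replicate 3, control replicate 1 or control replicate 2.

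**Figure D2:**
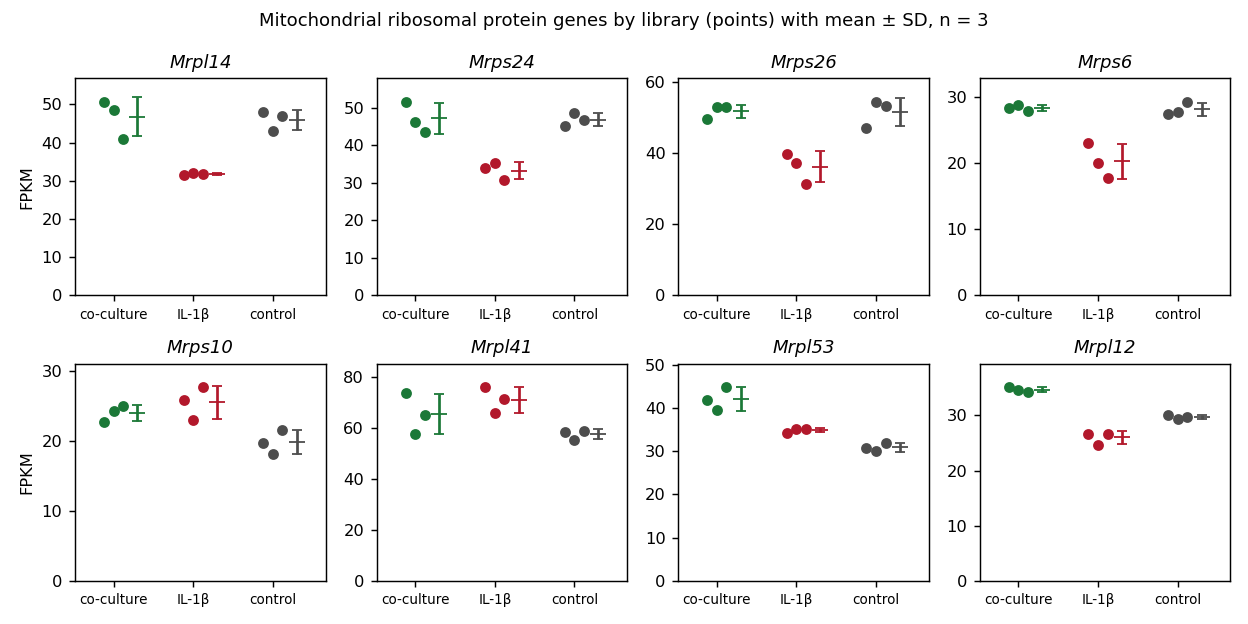
FPKM of 8 mitochondrial ribosomal protein genes in each library (points), with the mean ± SD of 3 libraries beside them, for co-culture, IL-1β and control. Mrpl14, Mrps24, Mrps26 and Mrps6 are lowest in the IL-1β libraries, Mrps10 and Mrpl41 have their lowest means in the control libraries, and Mrpl53 and Mrpl12 are highest in the co-culture libraries.

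Of the cytosolic genes, 2 of 30 of the small subunit (6.67%) and 8 of 45 of the large one (17.8%) were lower with IL-1β, both shares below the 31.2% of all genes. After median-of-ratios scaling 0 and 2 were, and the subunits were not tested against each other. Rpl15, a core protein of the large subunit, had 321, 321 and 317 FPKM in IL-1β libraries, against 348, 361 and 360 FPKM in control libraries (log2 fold change -0.16, SE 0.03, limma adjusted p = 0.00165). Rpl3, which reaches towards the peptidyl transferase centre, had 1311, 1287 and 1351 FPKM in IL-1β libraries, against 1423, 1498 and 1456 FPKM in control libraries (log2 fold change -0.15, SE 0.03, limma adjusted p = 0.00288). Both also passed after median-of-ratios scaling (adjusted p = 0.0141 and 0.0173), and they were the only cytosolic genes lower under it.
Rps2 had 4108, 4132 and 4170 FPKM in IL-1β libraries, against 4368, 4543 and 4515 FPKM in control libraries, and its log2 fold change of -0.11 (limma adjusted p = 0.0171) lost the call after that scaling (adjusted p = 0.113) and without control replicates 2 or 3. Rpl10a, of the stalk where used transfer RNA leaves, averaged 874 ± 67 FPKM in IL-1β libraries and 985 ± 18 FPKM in control libraries (SD, n = 3 each; log2 fold change -0.18, limma adjusted p = 0.0175), a call lost after that scaling (adjusted p = 0.0547) and without IL-1β replicate 1 or control replicate 3.

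Rpl28, a large-subunit protein without a bacterial counterpart, was the 1 cytosolic gene called higher with IL-1β. It had 1300, 1351 and 1348 FPKM in IL-1β libraries, against 1214, 1232 and 1242 FPKM in control libraries. The log2 fold change was 0.12 (SE 0.05, limma adjusted p = 0.0494), and the call was lost without co-culture replicate 3 or without any IL-1β or control library. It was also lost with the replicate block (adjusted p = 0.0748), without a filter (adjusted p = 0.0784), without trend and robust settings (adjusted p = 0.0842) and under quantile normalization, where the fold change was 0.02 (adjusted p = 0.691). After median-of-ratios scaling its adjusted p was 0.00845, and Rps16, Rps3a, Rpl10, Rpl12, Rpl23 and Rpl27 were called higher beside it. Rpl12, at the base of the stalk that binds elongation factors, averaged 1310 ± 26 FPKM in IL-1β libraries and 1160 ± 124 FPKM in control libraries (SD, n = 3 each). Its log2 fold change was 0.18 (limma adjusted p = 0.071 as deposited and 0.0282 after scaling).

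Co-culture was set against IL-1β to see how cells given the cytokine differed between co-culture and normal culture. The transwell and the dermal fibroblasts came together in these groups, so their parts cannot be told apart. Many mitochondrial ribosomal protein genes were higher in co-culture, while how many cytosolic ones passed depended on the scaling. Across all genes 33.3% were called higher and 16.7% lower. Of the mitochondrial genes 42 of 70 were higher (60.0%) and 1 lower (1.43%), at a median log2 fold change of 0.20. Of the cytosolic genes 31 of 75 were higher (41.3%) and 0 lower, with a median of 0.10, where the median of all genes was 0.06, and 44 cytosolic and 27 mitochondrial genes passed in neither direction. After median-of-ratios scaling 23.9% of all genes were higher and 23.2% lower, with 33 mitochondrial genes higher (47.1%) and 1 lower and 11 cytosolic genes higher (14.7%) and 0 lower, at medians of 0.13 and 0.03. The cytosolic share was then below that of all genes. Under quantile normalization 36 of 70 mitochondrial and 49 of 75 cytosolic genes were higher, where 28.1% of all genes were higher and 20.1% lower. The larger share called was then cytosolic, but the mitochondrial median, 0.17, stayed above the cytosolic one, 0.14. The mitochondrial count ranged from 34 to 43 when each library was left out, and the cytosolic count fell to 18 without co-culture replicate 1 and to 20 without IL-1β replicate 1.

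The comparison shares its IL-1β libraries with the one before, so a gene low in those libraries tends to be called in both. Of the 26 mitochondrial genes lower with IL-1β, 25 were higher in co-culture than with IL-1β alone, and of the 10 such cytosolic genes, 10 were. The same share over all genes lower with IL-1β is not given here, so these counts are not read as particular to ribosomal proteins. Mrpl14 had 50.7, 48.7 and 41.0 FPKM in co-culture libraries and Mrps24 had 51.7, 46.2 and 43.7 FPKM. Both are above every IL-1β value given earlier, and both overlap their control values. The log2 fold changes over IL-1β were 0.53 for Mrpl14 (SE 0.07, limma adjusted p = 7.67e-05) and 0.49 for Mrps24 (SE 0.06, limma adjusted p = 6.98e-05). Mrps26 averaged 51.9 ± 1.9 FPKM in co-culture libraries and 36.2 ± 4.4 FPKM in IL-1β libraries, and Mrps6 28.3 ± 0.44 FPKM in co-culture libraries and 20.3 ± 2.6 FPKM in IL-1β libraries (SD, n = 3 each), with log2 fold changes of 0.51 (limma adjusted p = 0.000547) and 0.47 (limma adjusted p = 0.000234). Mrpl48 was higher by 0.38 on the log2 scale (limma adjusted p = 0.000248).

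Mrpl12 had the smallest p of the members in this comparison. It encodes the mitochondrial counterpart of the stalk protein that recruits elongation factors. Its values were 35.1, 34.6 and 34.3 FPKM in co-culture libraries, against 26.7, 24.7 and 26.7 FPKM in IL-1β libraries, with control libraries between them at 30.1, 29.3 and 29.7 FPKM. No 2 of the 3 groups overlapped. The log2 fold change of co-culture over IL-1β was 0.40 (SE 0.04, limma adjusted p = 4.62e-06), and that of IL-1β over control was -0.18 (limma adjusted p = 0.00155).
Mrpl15, a homologue of a bacterial large-subunit protein, had 66.3, 66.2 and 67.8 FPKM in co-culture libraries, against 53.8, 55.4 and 55.2 FPKM in IL-1β libraries (log2 fold change 0.28, SE 0.04, limma adjusted p = 0.000242). Mrpl45, a large-subunit protein that mitochondria added and that faces the inner membrane, had 32.6, 32.0 and 32.9 FPKM in co-culture libraries, against 25.3, 26.6 and 25.8 FPKM in IL-1β libraries (log2 fold change 0.32, SE 0.05, limma adjusted p = 0.000238). Mrps7, of the small subunit's head, had 83.4, 76.4 and 74.9 FPKM in co-culture libraries, against 62.7, 62.0 and 65.1 FPKM in IL-1β libraries (log2 fold change 0.30, SE 0.05, limma adjusted p = 0.000283). In all 3 of these genes every co-culture library was above every IL-1β library.
Mrpl53, higher with IL-1β than in control, was higher again in co-culture, at 41.8, 39.4 and 44.8 FPKM (log2 fold change over IL-1β 0.26, limma adjusted p = 0.000589). Of the other members higher with IL-1β, Mrps10, Mrpl41 and Mrpl33 had log2 fold changes of -0.08, -0.12 and -0.18 in co-culture over IL-1β and Mrpl47 one of 0.0145. All 4 had overlapping groups, and none passed (limma adjusted p = 0.38, 0.249, 0.169 and 0.868). Without co-culture replicate 1 Mrpl41 did pass, as lower (adjusted p = 0.0266).

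Mrpl52 was the 1 mitochondrial gene lower in co-culture than with IL-1β. It had 45.5, 43.2 and 41.2 FPKM in co-culture libraries, against 47.9, 47.5 and 47.3 FPKM in IL-1β libraries (log2 fold change -0.13, SE 0.04, limma adjusted p = 0.0198). The call was lost without co-culture replicates 2 or 3 or IL-1β replicate 1, and it stood after median-of-ratios scaling (adjusted p = 0.00236).

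Among the cytosolic genes the smallest p-values in this comparison were those of large-subunit members. Rpl15 had 383, 383 and 359 FPKM in co-culture libraries, all above its IL-1β values (log2 fold change 0.23, SE 0.03, limma adjusted p = 0.000114). Rpl4, which lines the tunnel through which the new protein leaves, had 1265, 1266 and 1200 FPKM in co-culture libraries, against 1062, 1085 and 1080 FPKM in IL-1β libraries (log2 fold change 0.21, SE 0.03, limma adjusted p = 0.000132). Rpl27a, a core protein of the large subunit, had 718, 659 and 663 FPKM in co-culture libraries, against 560, 593 and 548 FPKM in IL-1β libraries (log2 fold change 0.26, SE 0.04, limma adjusted p = 0.000312).
Rplp0, the base of the acidic stalk, was higher by 0.22 on the log2 scale (limma adjusted p = 0.000563), with 2690, 2629 and 2642 FPKM in co-culture libraries, against 2274, 2162 and 2404 FPKM in IL-1β libraries. All 4 of these calls stood after median-of-ratios scaling.
Over the subunit as a whole, 22 of 45 large-subunit (48.9%) and 9 of 30 small-subunit cytosolic genes were higher. The large-subunit share lay above the 33.3% of all genes and the small-subunit share below it. After median-of-ratios scaling 10 (22.2%) and 1 (3.33%) were higher, both shares below the 23.9% of all genes. The subunits were not tested against each other. The ratio of summed small-subunit to large-subunit FPKM was 0.727 ± 0.006 in co-culture, 0.738 ± 0.005 in IL-1β and 0.736 ± 0.005 in control libraries (SD, n = 3 each). The co-culture values, 0.720 to 0.732, lay below the IL-1β values, 0.734 to 0.743, and overlapped the control values.

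**Figure D3:**
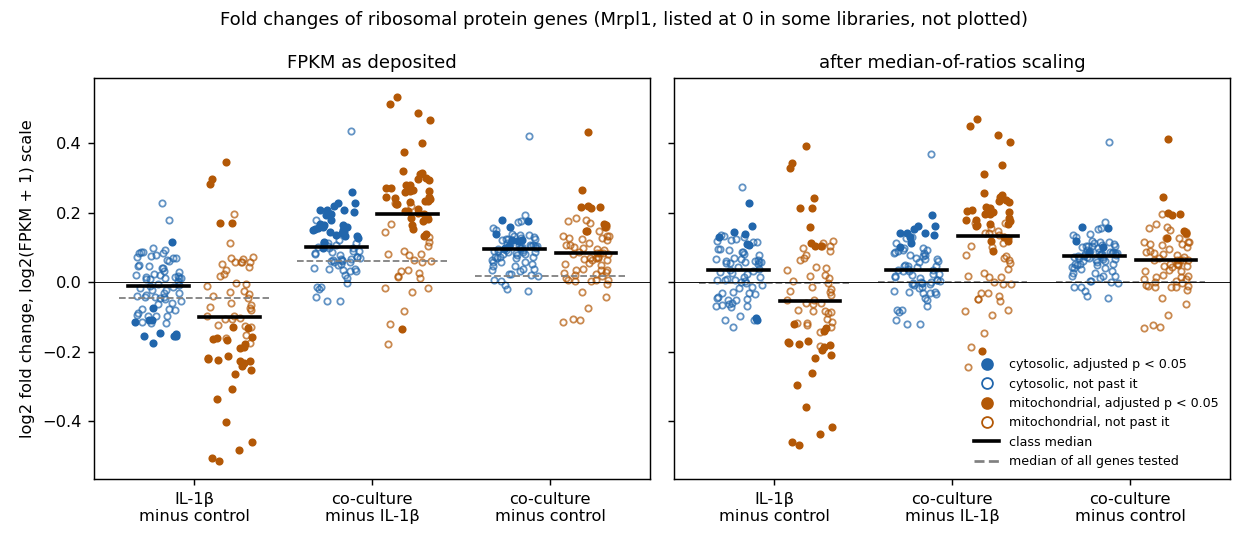
Log2 fold changes of the cytosolic (blue) and mitochondrial (brown) genes for each comparison, as deposited (left) and after median-of-ratios scaling (right). Filled points passed an adjusted p of 0.05, black bars are class medians over all members, dashed lines the median of all genes tested, and the mitochondrial median lies below the cytosolic one for IL-1β minus control and above it for co-culture minus IL-1β.

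Co-culture was also set against control, which asks how cells with cytokine and in co-culture differ from untreated ones. Few members were called. Across all genes 12.4% were higher and 7.91% lower. Of the cytosolic genes 9 of 75 were higher (12%) and 0 lower, and of the mitochondrial genes 11 of 70 were higher (15.7%) and 0 lower, shares close to that of all genes. The medians were 0.10 for the cytosolic and 0.08 for the mitochondrial class, and 0.02 for all genes. After median-of-ratios scaling 10.1% of all genes were higher and 9.44% lower, with 5 cytosolic and 8 mitochondrial genes higher and 0 of either lower. Under quantile normalization 8.86% of all genes were higher and 10.3% lower, with 3 cytosolic and 4 mitochondrial genes higher and 2 of each lower. The cytosolic count of 9 was 1 without co-culture replicate 1, 5 without co-culture replicate 2, 1 without control replicate 1 and 0 without control replicate 2, and the mitochondrial count was 6 without co-culture replicate 1, control replicate 1 or control replicate 2.

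Mrpl53 had the largest difference from control among the called members, 0.43 on the log2 scale (SE 0.05, limma adjusted p = 5.08e-05), and its 9 values rank co-culture, IL-1β and control without overlap. Mrpl12 was higher by 0.22 (SE 0.04, limma adjusted p = 0.00181) and Mrpl15 by 0.22 (SE 0.04, limma adjusted p = 0.00383). Mrps11, a homologue of a bacterial small-subunit protein, had 35.1, 34.4 and 34.0 FPKM in co-culture libraries, against 29.5, 30.6 and 28.7 FPKM in control libraries (log2 fold change 0.21, SE 0.04, limma adjusted p = 0.00134). Mrpl46, which starts 234 bases from it on the other strand, had 18.9, 16.2 and 20.7 FPKM in co-culture libraries, against 17.8, 17.3 and 15.9 FPKM in control libraries, and these overlap. Mrps2, a homologue of a bacterial small-subunit protein, averaged 21.6 ± 1.0 FPKM in co-culture libraries and 19.4 ± 0.37 FPKM in control libraries (SD, n = 3 each; log2 fold change 0.15, limma adjusted p = 0.0256), a call lost without co-culture replicates 2 or 3 or control replicates 2 or 3 and under quantile normalization (adjusted p = 0.0579). Mrps10 was higher in co-culture than in control by 0.27 (limma adjusted p = 0.026), a call lost without co-culture replicates 2 or 3 or control replicates 1 or 2, without a filter (adjusted p = 0.0583) and under quantile normalization (adjusted p = 0.0521).
Rpl28 was the cytosolic gene with the smallest p, at 1499, 1301 and 1376 FPKM in co-culture libraries (log2 fold change over control 0.18, limma adjusted p = 0.0177), a call lost without control replicates 1 or 2 and under quantile normalization, where the fold change was 0.06 (adjusted p = 0.23). Rps3, a small-subunit protein at the mRNA entrance that also has a part in DNA repair, averaged 2021 ± 70 FPKM in co-culture libraries and 1856 ± 44 FPKM in control libraries (SD, n = 3 each; log2 fold change 0.12, limma adjusted p = 0.0239), a call lost without co-culture replicate 1 or control replicates 1 or 2 and with the replicate block (adjusted p = 0.0504). Under quantile normalization the fold change of Rps3 was 0.03 (adjusted p = 0.62).

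The classes were compared within each library to remove what scales both alike. As a share of all FPKM, the cytosolic genes made up 20.5%, 19.3% and 19.5% in co-culture, 17.6%, 18.1% and 18.4% in IL-1β and 19%, 19.1% and 19.8% in control libraries. The mitochondrial genes made up 0.516%, 0.506% and 0.513% in co-culture, 0.451%, 0.457% and 0.455% in IL-1β and 0.490%, 0.502% and 0.509% in control libraries. Both shares were lowest in the IL-1β libraries, with no overlap with either other group. A share also moves with the rest of the library, and in summed FPKM the IL-1β and control libraries overlapped for both classes (mitochondrial 3242 to 3373 in IL-1β and 3331 to 3542 in control libraries). The summed mitochondrial FPKM of co-culture libraries, 3564 to 3778, lay above both other groups. After median-of-ratios scaling the sums were 3501 to 3697 in co-culture, 3347 to 3452 in IL-1β and 3314 to 3511 in control libraries, and co-culture overlapped control. With 3 libraries against 3 an exact two-sided permutation test cannot give a p below 0.1, and none is given for these sums.

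**Figure D4:**
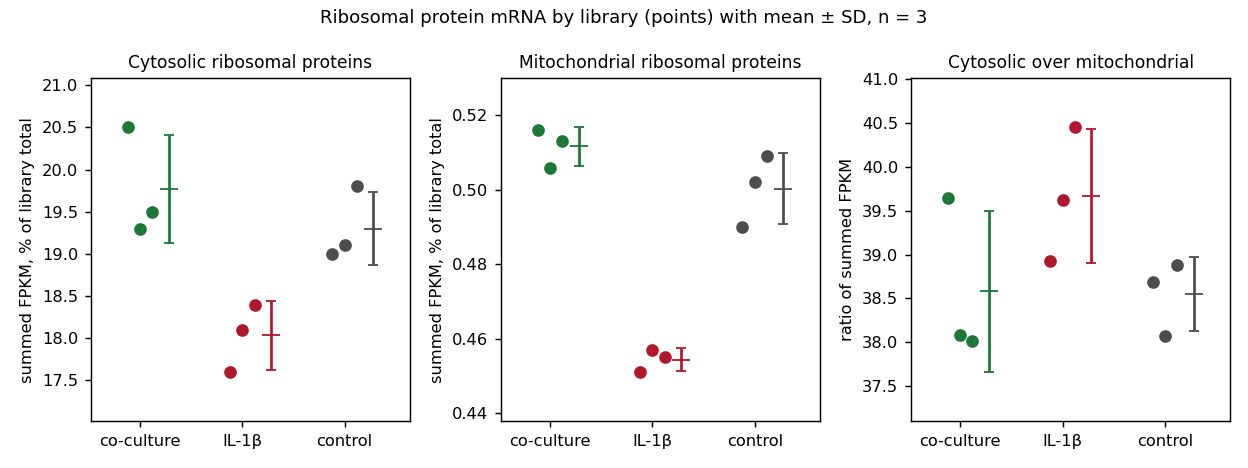
Summed FPKM of the cytosolic and the mitochondrial genes as percent of the library's total, and the ratio of the 2 sums, for each library (points) with mean ± SD of 3 libraries. The axes do not start at 0. The IL-1β libraries have the lowest shares of both classes, 17.6 to 18.4% and 0.451 to 0.457%, and their ratios, 38.93 to 40.45, overlap those of the co-culture libraries and lie just above the highest control ratio, 38.88.

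The ratio of cytosolic to mitochondrial sums was 39.64, 38.08 and 38.02 in co-culture, 38.93, 39.62 and 40.45 in IL-1β and 38.69, 38.07 and 38.88 in control libraries. The co-culture range overlapped both others, and the lowest IL-1β ratio lay just above the highest control one. Taken gene by gene, the median fold change of the cytosolic class exceeded that of the mitochondrial class by 0.09 log2 units for IL-1β over control, and was below it, at -0.10, for co-culture over IL-1β. For co-culture over control the difference was 0.01. Per library, the cytosolic minus mitochondrial median of log2(FPKM + 1), centred on each gene's mean, had a pooled SD of 0.037 within groups. That is a spread of single libraries and not of a difference between groups. Median-of-ratios scaling gave differences of 0.09, -0.10 and 0.01, but quantile normalization gave -0.03, -0.03 and -0.04, so the signs for IL-1β over control and co-culture over control depend on the scaling. For co-culture over control the difference also ran from -0.0183 to 0.0352 on leaving out a library.

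Among the cytosolic genes the start tract went with small differences of median. For IL-1β over control the median log2 fold change was 0.01 over the 36 genes with a tract and -0.02 over the 20 without, and for co-culture over IL-1β it was 0.07 with and 0.12 without. For co-culture over control both medians were 0.10. In the mitochondrial class the medians for IL-1β over control were -0.13 over the 13 genes with a tract and -0.07 over the 44 without. None of these differences was tested.

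Members varied little between libraries of a group. The median within-group coefficient of variation was 4.91% for the cytosolic and 5.81% for the mitochondrial genes. Rps16, of the small subunit, was the steadiest over all 9 libraries with 3.54%, followed by Rps4x with 3.73%, Mrps23 with 3.90%, Rps27a (made as a fusion with ubiquitin) with 3.95% and Rpl10 (which completes the large subunit) with 3.97%. Apart from Mrpl1, the least steady was Rpl39, a very small protein at the mouth of the exit tunnel, at 24.7%. It had 1037, 547 and 652 FPKM in co-culture, 556, 778 and 960 FPKM in IL-1β and 666, 567 and 682 FPKM in control libraries, so its spread lay within groups. Rps19 followed at 19.3%, with 221, 175 and 209 FPKM in co-culture, 166, 162 and 121 FPKM in IL-1β and 162, 159 and 129 FPKM in control libraries. Its co-culture values lay above all others, but the log2 fold changes of 0.44 over IL-1β (limma adjusted p = 0.0563) and 0.42 over control (limma adjusted p = 0.113) did not pass. The first passed with the replicate block (adjusted p = 0.0369), without a filter (adjusted p = 0.0451), without trend and robust settings (adjusted p = 0.0306) and without co-culture replicate 2 or control replicate 3, and the second without IL-1β replicate 3. Co-culture replicate 1 was the library that stood apart most, its median cytosolic gene being 0.08 log2 units above the group mean.

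**Figure D5:**
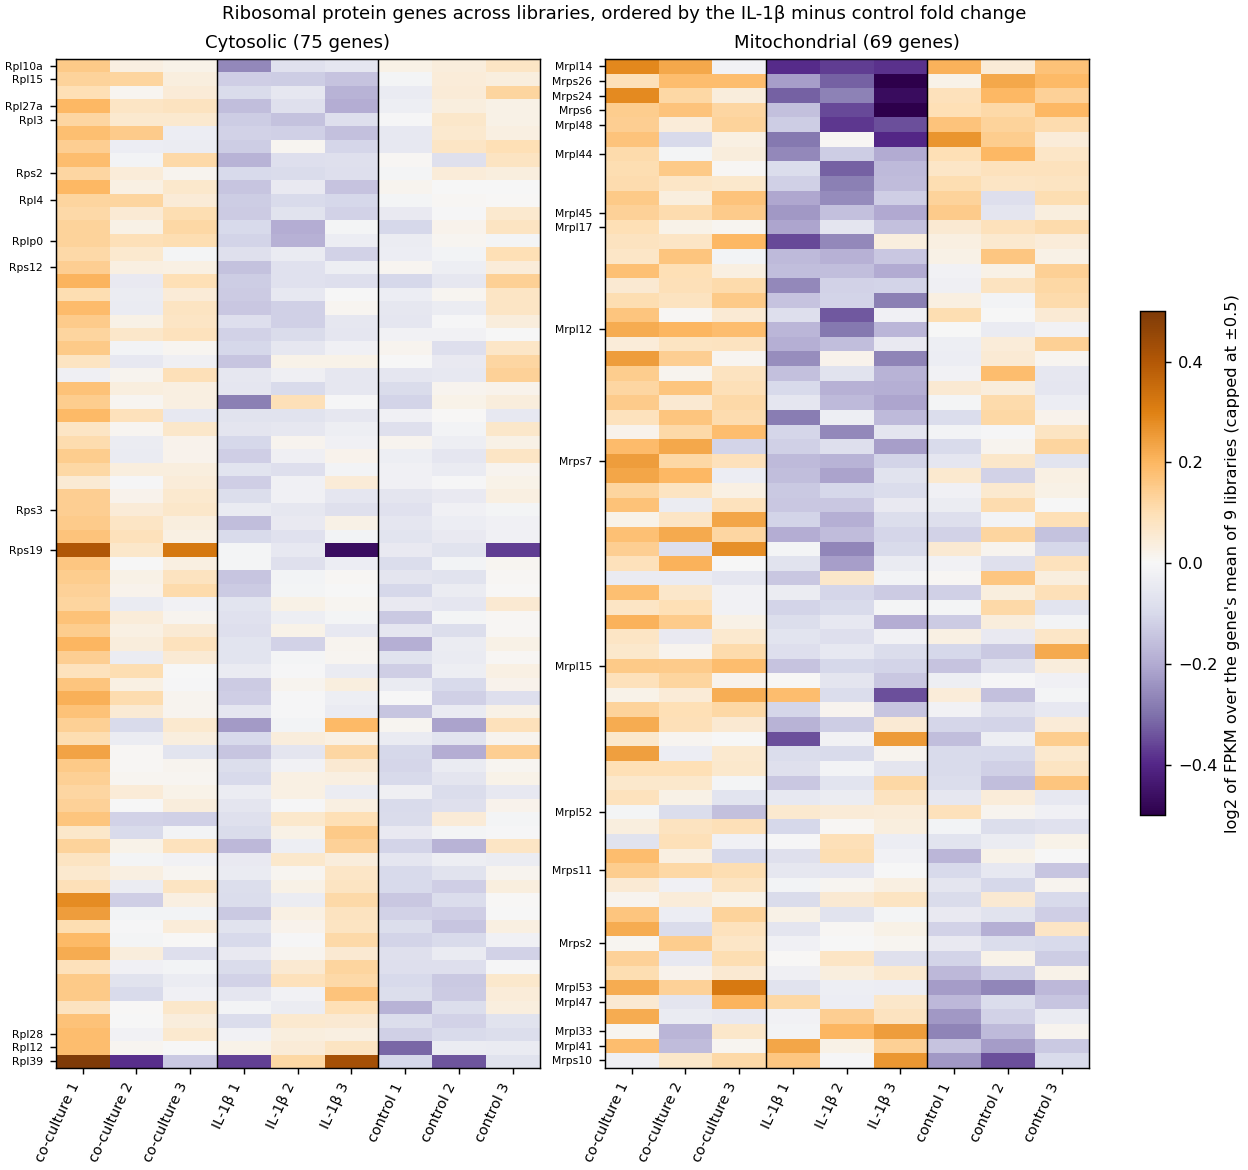
Each row is a ribosomal protein gene (some are labelled) and each column a library, coloured by the log2 of FPKM over the gene's mean of 9 libraries (capped at 0.5 either way), with rows ordered by the IL-1β minus control fold change; Mrpl1 is left out. The cytosolic panel is mostly pale apart from Rps19, Rpl39 and the first co-culture column, and the upper rows of the mitochondrial panel are low in all 3 IL-1β libraries.

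Counts in related gene lists are to be read against the shares of all genes, which with IL-1β were 20.5% higher and 31.2% lower (25.4% and 25.3% after median-of-ratios scaling), and in co-culture over IL-1β 33.3% higher and 16.7% lower (23.9% and 23.2% after scaling). Of 20 ribosomal proteins with other names, a list that holds Rpsa and Dap3, 10 were lower with IL-1β (50%) and 1 was higher (8 and 3 after scaling). Aurkaip1, a mitochondrial small-subunit protein, had 77.8, 76.8 and 73.6 FPKM in IL-1β libraries, against 87.0, 90.3 and 91.3 FPKM in control libraries (log2 fold change -0.23, limma adjusted p = 0.000176), and the 1 that was higher, Rpl36al, a near copy of Rpl36a, had 408, 456 and 452 FPKM in IL-1β libraries, against 350, 344 and 362 FPKM in control libraries (log2 fold change 0.32, limma adjusted p = 6.59e-05). In co-culture over IL-1β, 13 of these 20 were higher (65%) and 1 lower (8 and 1 after scaling). In co-culture over control 2 were higher (10%, against 12.4% of all genes) and 0 lower. The other factors of mitochondrial translation, mostly enzymes that charge transfer RNA and elongation factors, were lower with IL-1β in 8 of 29 (27.6%) and higher in 0, and 4 (13.8%) and 0 after scaling, below the share of all genes each time. In co-culture over IL-1β 11 were higher (37.9%) and 0 lower, and 4 (13.8%) and 0 after scaling. Tars2, the mitochondrial threonyl-tRNA synthetase, averaged 8.62 ± 0.19 FPKM in IL-1β libraries and 11.2 ± 0.41 FPKM in control libraries (SD, n = 3 each; log2 fold change -0.34, limma adjusted p = 0.000394). Of 30 factors that assemble the mitochondrial ribosome or handle mitochondrial RNA, 4 were higher and 5 lower with IL-1β (4 and 5 after scaling), and 10 higher (33.3%) and 1 lower in co-culture over IL-1β (5 and 3 after scaling). C1qbp, a matrix chaperone, had 227, 225 and 228 FPKM in co-culture, 187, 186 and 190 FPKM in IL-1β and 207, 207 and 211 FPKM in control libraries, with no overlap (log2 fold changes 0.27 for co-culture over IL-1β, limma adjusted p = 3.76e-06, and -0.15 for IL-1β over control, limma adjusted p = 0.00039). Of 44 nuclear genes of the respiratory chain, to which mitochondrial ribosomes supply partner subunits, 8 were higher and 7 lower with IL-1β (17 and 4 after scaling), and 14 were higher and 2 lower in co-culture over IL-1β (6 and 4 after scaling).

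Many genes that build cytosolic ribosomes were higher in co-culture. Of 64 ribosome assembly factors, 38 were higher (59.4%) and 3 lower in co-culture than with IL-1β (26 and 4 after median-of-ratios scaling), and 25 were higher (39.1%, against 12.4% of all genes) and 0 lower than in control (19 and 0 after scaling), with medians of 0.14 and 0.12. Fbl, the methyltransferase of ribosomal RNA, had 132, 127 and 124 FPKM in co-culture, 97.8, 102 and 102 FPKM in IL-1β and 108, 109 and 113 FPKM in control libraries, and co-culture lay above both (log2 fold changes 0.34 over IL-1β, limma adjusted p = 5.87e-06, and 0.21 over control, limma adjusted p = 0.000847). Npm1, a nucleolar chaperone of ribosome assembly, had log2 fold changes of 0.28 over IL-1β (limma adjusted p = 8.24e-05) and 0.23 over control (limma adjusted p = 0.00106).
With IL-1β over control, 7 assembly factors were higher and 17 lower (11 and 10 after scaling). Rcl1, which acts in the cleavage of ribosomal RNA precursors, stood out with 47.3, 44.6 and 43.7 FPKM in IL-1β libraries, against 27.6, 30.4 and 29 FPKM in control libraries (log2 fold change 0.62, limma adjusted p = 5.48e-07). Ubtf, the upstream binding factor of RNA polymerase I, was lower with IL-1β by -0.27 (limma adjusted p = 1.62e-05) and higher in co-culture over IL-1β by 0.25 (limma adjusted p = 3.81e-05). It had the smallest p, in both comparisons, of 20 genes of RNA polymerase I and its factors. Of these 20, 2 were higher (10%) and 6 lower (30%, against 31.2% of all genes) with IL-1β (4 and 2 after scaling). In co-culture over IL-1β 9 were higher (45%) and 0 lower (7 and 1 after scaling).

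Cytosolic translation factors went both ways with IL-1β, with 6 of 50 higher and 15 lower, 12% and 30% (13 and 10 after median-of-ratios scaling), and 25 were higher and 4 lower in co-culture over IL-1β (16 and 9 after scaling). Eif2b2, a subunit of the exchange factor that recharges the initiator complex, had 61.7, 65.7 and 63.6 FPKM in co-culture, 46.6, 48.6 and 46.9 FPKM in IL-1β and 70.7, 71.6 and 70.2 FPKM in control libraries. It was lower with IL-1β over control by -0.57 (limma adjusted p = 3.73e-08) and higher in co-culture over IL-1β by 0.42 (limma adjusted p = 9.49e-07). Of 37 genes of mTORC1 signalling, TOP mRNA translation and the Myc network, 3 were higher and 18 lower (48.6%) with IL-1β (4 and 13 after scaling). In co-culture over IL-1β 14 were higher and 3 lower (8 and 4 after scaling). In co-culture over control 1 was higher and 6 lower, 2.7% and 16.2%, against 12.4% and 7.91% of all genes. After scaling these were 0 and 7, with 18.9% lower against 9.44% of all genes. Eif4ebp1, a translation repressor that mTORC1 turns off, had 198, 185 and 189 FPKM in co-culture, 153, 159 and 161 FPKM in IL-1β and 223, 211 and 213 FPKM in control libraries (log2 fold change -0.45 for IL-1β over control, limma adjusted p = 6.18e-07, and 0.27 for co-culture over IL-1β, limma adjusted p = 6.31e-05). Deptor and Sesn3, inhibitors of mTORC1, were lower with IL-1β by -1.25 (limma adjusted p = 1.13e-08) and -1.10 (limma adjusted p = 1.82e-09). These are levels of mRNA, and translation was not measured.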

How the data were processed

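Messenger RNA was measured in 9 libraries of rat synovial fibroblasts, 3 per group, with groups taken from the titles. The values are FPKM as deposited by the authors, per the file headers. The genome build was GRCm38, a mouse build, per the submitters' processing notes, while the rows carry rat gene identifiers, so which reference the reads met is unsettled. For the aligner and the quantifier, the tool was not given in the sources used here. The members and all gene lists were chosen with earlier results of these data known. Of the 145 member identifiers, 142 were found in the rat RefSeq table (assembly GRCr8). The identifier of Rpl37 is named Rpl37l1 there and that of Mrps36 is named Kgd4, a subunit of the oxoglutarate dehydrogenase complex.

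Genes with a mean of at least 1 FPKM were tested, 11372 of 17298, with limma 3.58.1 in R 4.3.3 on log2(FPKM + 1), 1 fit over all 9 libraries with a term per group and trended, robust moderation. P-values were adjusted by Benjamini-Hochberg over all genes tested, with 0.05 as threshold. The procedure was tested on simulated data. Every fold change is a difference of log2(FPKM + 1), which understates the change of low genes. Alternatives were median-of-ratios scaling, quantile normalization, a pseudocount of 0.1, other filters, other moderation, a replicate block and leaving out each library. Genes were named by rank of level, p, fold change and variation within each class, by being called against their class, or by nearness to the minimum. One member that the rule names is not reported here. Mrpl46, Rplp0, Rpl10a, Rps3a, Rpl23, Rpl27, Rpl37a, Rpsa and the start windows printed fall outside this rule and were picked after their values were seen.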

Additional observations from a re-analysis of the deposited data

How the results depend on the processing

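The number of cytosolic genes higher with IL-1β, 1 as deposited, was 7 after median-of-ratios scaling and 0 under quantile normalization, without a filter, with the replicate block and without trend and robust settings, and 0 to 2 on leaving out a library. The cytosolic genes lower with IL-1β, 10, were 2 after median-of-ratios scaling, 46 under quantile normalization and 4 to 12 on leaving out a library. The mitochondrial genes higher with IL-1β, 5, were 10 after median-of-ratios scaling and 3 to 6 on leaving out a library, and those lower, 26, were 20 to 26. In co-culture over IL-1β the cytosolic genes higher, 31, were 11 after median-of-ratios scaling, 49 under quantile normalization and 18 to 34 on leaving out a library, and the mitochondrial genes lower, 1, were 0 to 2. In co-culture over control the cytosolic genes higher, 9, were 5 after median-of-ratios scaling, 3 under quantile normalization, 5 without a filter, 2 with the replicate block, 3 without trend and robust settings and 0 to 11 on leaving out a library, and those lower, 0, were 2 under quantile normalization. The mitochondrial genes higher there, 11, were 4 under quantile normalization, 6 without a filter, 7 without trend and robust settings and 6 to 11 on leaving out a library, and those lower, 0, were 2 under quantile normalization, 1 with the replicate block and 0 to 1 on leaving out a library. Under quantile normalization the cytosolic minus mitochondrial difference was -0.0346, -0.0312 and -0.0388 for IL-1β over control, co-culture over IL-1β and co-culture over control. On leaving out a library these differences ran from 0.0699 to 0.1273, from -0.1111 to -0.0662 and from -0.0183 to 0.0352. The mean summed mitochondrial FPKM of the IL-1β libraries was 3411 after median-of-ratios scaling, against 3322 as deposited. The start tract shares with 20 bases allowed were 87.5% (cytosolic), 54.4% (mitochondrial) and 48.0% (all promoters). The causes were not tested.

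Whether replicate numbers pair the libraries was not labelled, and the values do not settle it. Same-numbered libraries of different groups had correlations of their deviations from -0.046 to 0.189 (median 0.086), with 1 of 9 above 0.1. For different numbers they ran from -0.221 to 0.133 (median -0.0075), with 1 of 18 above 0.1. With the replicate block, 27 mitochondrial genes were lower with IL-1β and 42 higher in co-culture over IL-1β. The shares of all genes with the block are not given here, so these counts are not read as particular to the class. Of 1325 values of named genes under the alternatives, 0 changed direction, 53 lost the threshold and 12 newly passed it. Other filters, other moderation, the replicate block and removal of a library outside the comparison leave a fold change as it is. They could not change its direction, and many of these genes were picked for a small p or large fold change. No depth is known, so changes of members at a few FPKM, such as Mrpl1, could not be judged.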
